A study of Mus musculus with 6 samples.

Results

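RNA levels of genes that osteocytes and other bone cells use to regulate phosphate and mineral were compared between radiated and non-radiated mouse femur. The genes are Fgf23, Phex, Dmp1, Mepe, Fam20c, Galnt3, Enpp1, Ank, Slc20a1 and Slc20a2. They were taken by symbol from a table of 43346 genes, and all 10 of 10 were found, each in 1 row. All 10 passed the filter on low counts, which kept 18757 genes. The mice were C57BL/6, aged 4 months, and no genetic change is named in the labels. In the radiated group, an X-ray dose of 24 Gy at 6.6 Gy per minute was aimed at 5 mm of the distal metaphysis of the right femur, the spongy end of the shaft beside the growth plate. The non-radiated group is the left femur, a control inside the body of an irradiated animal and not from an untreated mouse. Both were collected on day 21, before the loss of bone that the submitters saw on day 28, with 3 libraries in each group. Muscle was removed and RNA was taken from homogenized bone. The labels name no step that removed marrow, and markers of blood cells were present, so each value is from a mixture of cells and fewer cells of a type cannot be told apart from less RNA in each cell. The labels do not say whether the libraries of a group came from separate mice, so p-values measure the spread between these libraries.

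FGF23 is a hormone that osteocytes, the cells buried in bone matrix, and osteoblasts release into blood. In the kidney it acts with the co-receptor Klotho to increase phosphate loss in urine and to lower active vitamin D. PHEX, a membrane endopeptidase, and DMP1, a matrix protein, hold FGF23 production down, and inherited loss of either raises FGF23 and causes hypophosphataemic rickets. FAM20C, a kinase of the secretory pathway, and GALNT3, a glycosyltransferase, act on FGF23 itself beside the site where furin-type proteases cut and inactivate it. ENPP1 makes pyrophosphate, an inhibitor of mineral growth, ANK is needed for its release from cells, and SLC20A1 and SLC20A2 carry phosphate into cells.

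Short coding stretches are shown because they are where the products of these genes meet. They are from GENCODE M21 transcripts on GRCm38, the build the submitters' notes name as mm10, and are written 5′ to 3′ on the coding strand. In Fgf23 (exon 3 of 3, chr6:127080233-127080274, plus strand) the capitals are codons 176 to 179, the protease cleavage motif. GALNT3 adds a sugar within that motif, which protects the hormone, and FAM20C phosphorylates the serine that follows it. In Phex (exon 17 of 22, chrX:157186213-157186251, minus strand) the capitals are codons 580 to 584, the zinc-binding motif of the peptidase. In Mepe (exon 3 of 3, chr5:104338244-104338318, plus strand) the capitals are codons 425 to 441, the acidic, serine-rich end of this matrix protein, which inhibits mineralization when released and which PHEX binds and degrades.
Fgf23: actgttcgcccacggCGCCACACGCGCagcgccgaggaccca
Phex: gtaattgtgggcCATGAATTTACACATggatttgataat
Mepe: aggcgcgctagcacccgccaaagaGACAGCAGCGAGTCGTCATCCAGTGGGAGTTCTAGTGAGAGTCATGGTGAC

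Fgf23 rose and Phex fell in radiated femur, and none of the other 8 genes passed the test. Fgf23 entered the test only through its radiated libraries, the group where it is high, so its being tested was not independent of its difference. With no filter it was called too (edgeR adjusted p 0.000667), but on the same counts, so that call is no independent check. A gene was called where its Benjamini-Hochberg adjusted p over all genes tested, by edgeR's quasi-likelihood test, was under 0.05. By that rule 2 of the 10 genes were called, where 7.80% of all genes tested were called. One was higher, where 4.56% of all genes were called higher, and 1 was lower, where 3.24% were called lower. For 4 of the 10 genes (Fgf23, Phex, Slc20a1 and Slc20a2) no radiated library fell in the range of the non-radiated ones, as was so for 25.9% of all genes. An unadjusted p under 0.05 was met by 6 of 10, against 21.5% of all genes. The median log2 fold change of the 10 was -0.10, against 0.00 over all genes tested. These genes were chosen with earlier results of these libraries known, so the counts describe them and are no independent evidence.

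Total counts ranged from 34034251 to 48708383 per library. In non-radiated library 2 a single row, AY036118, held 32.94% of all counts (95% Wilson interval 32.92% to 32.95%, which covers counting error only), against 0.3214% to 5.608% in the others, so that library had the least depth for other genes. Osteoblast and osteocyte markers were present in every library, as bone requires: the summed level of 10 osteoblast markers was 8887 to 13439 CPM, counts scaled to a common library size, in non-radiated and 6711 to 8684 CPM in radiated libraries. The sum of 12 skeletal muscle markers was 167 to 344 CPM in non-radiated libraries and 763, 2483 and 196 CPM in radiated libraries 1, 2 and 3. No list of markers used here had a gene at 0 in every library. CPM values are scaled by the trimmed mean of M-values (TMM), and fold changes are relative to the bulk of genes. When libraries were scaled by their totals alone, the median of all genes moved to 0.19 on the log2 scale.

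**Figure D1:**
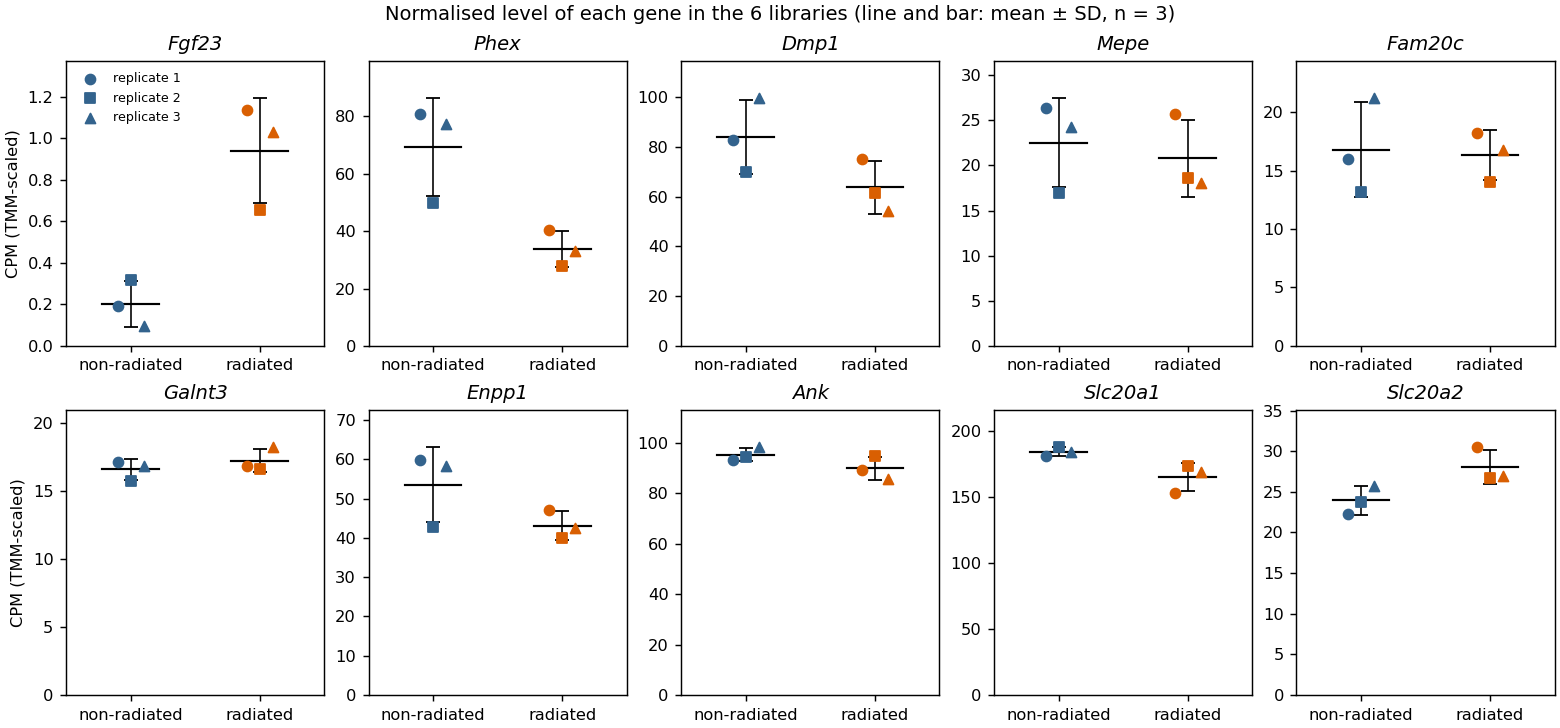
Normalised level of each of the 10 genes (vertical axes, TMM-scaled CPM from 0) in the 3 non-radiated (blue) and 3 radiated (orange) libraries. Marker shapes give the replicate number, and lines and bars are mean ± SD. The radiated points lie above all non-radiated points for Fgf23 and Slc20a2 and below them for Phex and Slc20a1; for Slc20a1 the sign of the difference turns when libraries are scaled by their totals alone.

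Fgf23 (ENSMUSG00000000182, chromosome 6, 127072902 to 127081408, protein-coding) was close to the limit of detection without radiation. It had 7, 8 and 4 counts in non-radiated libraries 1, 2 and 3, and 43, 35 and 46 counts in radiated libraries 1, 2 and 3. Divided by the effective library sizes, the exact 95% Poisson interval was 0.457 to 0.912 CPM for the lowest radiated library, number 2, and 0.138 to 0.631 CPM for the highest non-radiated one, also number 2, so these 2 libraries overlapped in counting error. The intervals of radiated libraries 1 and 3 began at 0.822 and 0.755 CPM, above the upper bounds of all 3 non-radiated libraries. After scaling these were 0.192, 0.319 and 0.0944 CPM in non-radiated and 1.14, 0.655 and 1.03 CPM in radiated libraries.
All 3 radiated libraries lay above all 3 non-radiated ones. The closest were those with number 2: the highest of the controls and the lowest of the radiated. The means were 0.202 ± 0.113 CPM and 0.941 ± 0.253 CPM (SD, n = 3 each). The log2 fold change was 2.30 (SE 0.42, 95% interval 1.35 to 3.24, edgeR adjusted p 0.0106), a 4.91-fold rise.
Within the replicate numbers, Fgf23 was higher on the radiated side by 2.56, 1.04 and 3.45 on the log2 scale for numbers 1, 2 and 3. It was called in each of the 13 alternatives in which it was tested. Leaving out 1 library at a time gave log2 fold changes from 1.90 (without non-radiated library 3) to 2.69 (without non-radiated library 2), with edgeR adjusted p from 0.00682 to 0.0496. Fgf23 was also called with the muscle level as a term in the edgeR fit (adjusted p 0.0148). All 12 muscle markers had positive log2 fold changes, so that term is partly confounded with group. Of the 12, 0 were called in the main fit and 10 with the replicate block, all higher, and 0 to 12 were called over the settings. The part of muscle RNA in the Fgf23 values was not tested.

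Phex (ENSMUSG00000057457, chromosome X, 157162075 to 157415312, protein-coding) fell on the radiated side of each replicate number. It was at 80.8, 49.7 and 77.4 CPM in non-radiated libraries 1, 2 and 3, and at 40.3, 28.0 and 32.9 CPM in radiated libraries 1, 2 and 3. Even the lowest control, non-radiated library 2, stood above the highest radiated library.
The means were 69.3 ± 17.1 CPM and 33.7 ± 6.17 CPM (SD, n = 3 each), with a log2 fold change of -1.04 (SE 0.18, 95% interval -1.46 to -0.63, edgeR adjusted p 0.00909). Within the numbers the differences lay between -1.23 (number 3) and -0.83 (number 2). The SE of the fold change was 0.09 with the replicate number as a block, and leaving out 1 library at a time gave values from -1.25 to -0.92, all called.
The call was lost in 1 of 14 alternatives, the edgeR fit with the muscle level as a term, where the log2 fold change was -0.85 (adjusted p 0.0553). The 3 other genes of the table that lie within the span of Phex had at most 27 counts in a library, against at least 1244 for Phex.

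**Figure D2:**
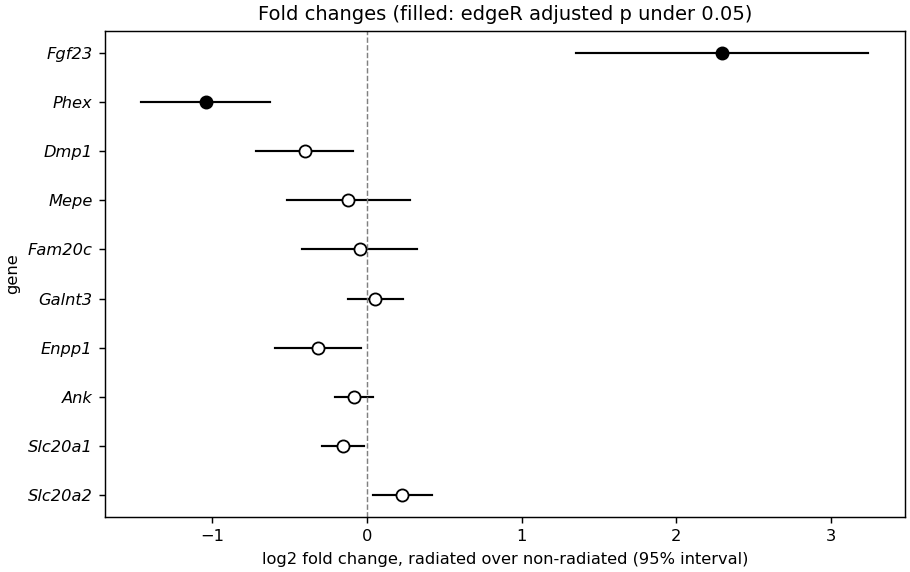
Log2 fold change of each gene (horizontal axis, radiated over non-radiated) with its 95% interval from the edgeR fit; filled points have an adjusted p under 0.05. Fgf23 at 2.30 and Phex at -1.04 lie on opposite sides of 0, and the other 8 lie between -0.40 and 0.23.

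Dmp1 and Mepe belong to the same family of acidic bone matrix proteins and sit near each other on chromosome 5. Dmp1 (ENSMUSG00000029307, 104202617 to 104214102) was at 82.6, 70.1 and 99.6 CPM in non-radiated and 75.1, 61.6 and 54.4 CPM in radiated libraries. The groups overlapped, because radiated library 1 stood above non-radiated library 2. The log2 fold change of Dmp1 was -0.40 (SE 0.14, 95% interval -0.72 to -0.09, edgeR adjusted p 0.124). Within numbers the differences were -0.14, -0.19 and -0.87, so most of the mean difference came from number 3. Dmp1 was called in 2 of 14 alternatives, with no filter on low counts (edgeR adjusted p 0.0216) and with DESeq2's Wald test (adjusted p 0.00934).
Mepe (ENSMUSG00000053863, 104325329 to 104338611) was at 26.4, 16.9 and 24.2 CPM in non-radiated and 25.7, 18.7 and 18.1 CPM in radiated libraries. These values were intermixed, with a log2 fold change of -0.12 (95% interval -0.52 to 0.28, edgeR adjusted p 0.761), and the sign turned under library totals alone and without non-radiated library 1.

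The enzymes that act on FGF23 did not pass the test. Fam20c (ENSMUSG00000025854, chromosome 5, 138754514 to 138810077) had 582, 330 and 898 counts in non-radiated and 688, 748 and 749 counts in radiated libraries, or 16.8 ± 4.07 and 16.3 ± 2.12 CPM (SD, n = 3 each). All radiated CPM values of Fam20c fell inside the range of the controls, with a log2 fold change of -0.05 (95% interval -0.42 to 0.33, edgeR adjusted p 0.908) whose sign turned in 4 of 14 alternatives, library totals alone among them. Galnt3 (ENSMUSG00000026994, chromosome 2, 66082766 to 66124994) was at 17.2, 15.7 and 16.9 CPM in non-radiated and 16.9, 16.6 and 18.2 CPM in radiated libraries. Its values lay close together in all 6 libraries, and its log2 fold change was 0.05 (95% interval -0.12 to 0.23, edgeR adjusted p 0.761). The interval of Galnt3 was narrower than that of Fam20c.

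Of the genes for pyrophosphate, Enpp1 (ENSMUSG00000037370, chromosome 10, 24637914 to 24712159) was at 59.8, 42.7 and 58.4 CPM in non-radiated and 47.0, 39.9 and 42.4 CPM in radiated libraries. Non-radiated library 2 fell among the radiated libraries and the other 2 controls stood above all of them. The log2 fold change of Enpp1 was -0.32 (SE 0.12, 95% interval -0.59 to -0.04, edgeR adjusted p 0.167). Without non-radiated library 2 it was -0.47 and called (edgeR adjusted p 0.0179), and DESeq2's Wald test also called it (adjusted p 0.0421). Ank (ENSMUSG00000022265, chromosome 15, 27466677 to 27594909) was at 93.4, 94.3 and 98.3 CPM in non-radiated and 89.2, 94.9 and 85.6 CPM in radiated libraries. Its groups overlapped, with a log2 fold change of -0.08 (95% interval -0.21 to 0.04, edgeR adjusted p 0.440), which was positive under library totals alone.

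The phosphate carriers Slc20a1 and Slc20a2 differed in opposite directions, neither of them called. Slc20a1 (ENSMUSG00000027397, chromosome 2, 129198764 to 129211616) was at 180.7, 187.3 and 183.6 CPM in non-radiated and 153.1, 173.2 and 168.9 CPM in radiated libraries. The groups did not overlap, yet the gap was small: a log2 fold change of -0.16 (95% interval -0.29 to -0.02, edgeR adjusted p 0.164), with a positive sign under library totals alone. Slc20a2 (ENSMUSG00000037656, chromosome 8, 22476700 to 22569607) was at 22.3, 23.8 and 25.8 CPM in non-radiated and 30.5, 26.7 and 27.0 CPM in radiated libraries. All radiated values were higher, by 0.23 on the log2 scale (95% interval 0.04 to 0.42, edgeR adjusted p 0.149), and the sign held in all 14 alternatives with no call. Slc20a2 shares its span with Smim19 on the other strand (203 to 421 counts per library) and Gm17491 on the same strand (331 to 736 counts), and Slc20a1 shares its span with 9830144P21Rik and RP23-160G19.10 on the other strand. Whether the counting used strand is not given in the sources used here, so these counts are uncertain to that extent.

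Compared per length, the 10 genes spanned a wide range. In CPM per kilobase of gene length, the non-radiated levels were 32.9 ± 0.597 for Slc20a1, 30.5 ± 5.37 for Dmp1 and 26.4 ± 0.722 for Ank, whose ranges overlapped from each to the next. Mepe at 13.4 ± 2.94 and Phex at 11.0 ± 2.71 CPM per kilobase followed and overlapped each other. Slc20a2 (6.56 ± 0.480), Enpp1 (5.23 ± 0.925), Fam20c (3.97 ± 0.963) and Galnt3 (3.79 ± 0.174 CPM per kilobase) were lower, and of these Slc20a2 did not overlap Enpp1, while Enpp1 overlapped Fam20c and Fam20c overlapped Galnt3. Fgf23 was the lowest of the 10 in both groups, at 0.111 ± 0.0622 CPM per kilobase in non-radiated and 0.519 ± 0.139 in radiated libraries (SD, n = 3 each). In radiated femur Phex, at 5.36 ± 0.981 CPM per kilobase, was no longer next to Mepe (12.4 ± 2.53) and came after Slc20a2 (7.69 ± 0.574), with no overlap between Slc20a2 and Phex.

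**Figure D3:**
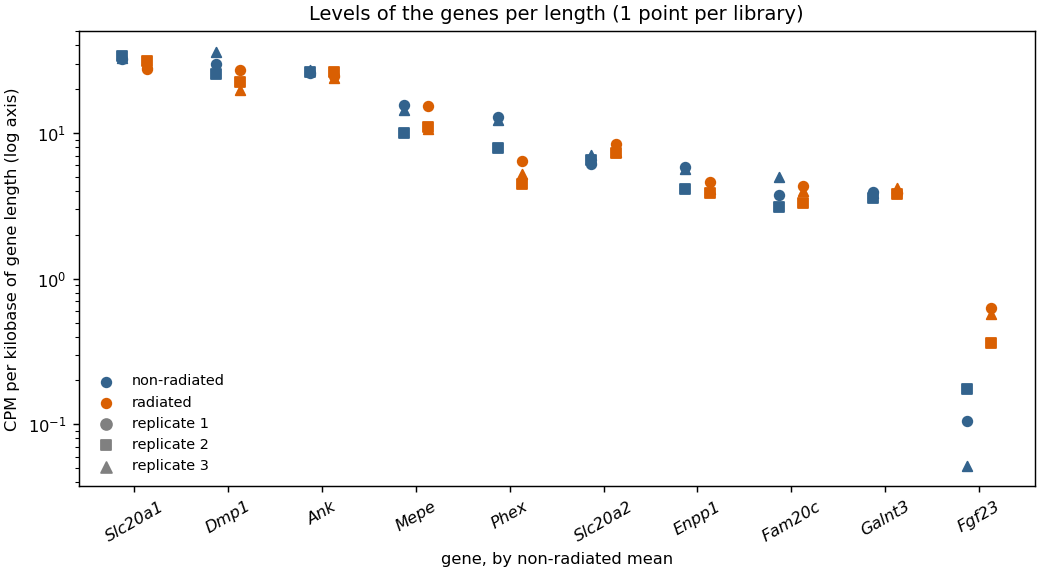
Level of each gene per kilobase of gene length (vertical log axis, CPM per kilobase), 1 point per library, ordered by the non-radiated mean. Fgf23 lies apart below the other 9 genes in both groups, and Phex is the gene whose orange points fall furthest below its blue points.

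Some bone-lineage markers also fell in radiated femur, and ratios inside a library, which need no scaling between libraries, place Fgf23 and Phex against them. Of 10 osteoblast markers 3 were called lower (7 with the replicate block), where 3.24% of all genes were called lower. The log2 fold change was negative for 9 of the 10, all but Alpl, with a median of -0.56. Runx2, a transcription factor of the lineage, fell by 0.47, Col1a1, the main bone collagen chain, by 0.61 and Ifitm5, an osteoblast membrane protein, by 1.08 on the log2 scale (edgeR adjusted p 0.00396, 0.0470 and 0.0108). Col1a1 lost its call in 7 of 14 alternatives, 5 of them edgeR fits without non-radiated library 1 or 3 (adjusted p 0.150 and 0.105) or radiated library 1, 2 or 3 (0.0884, 0.111 and 0.0786). The call of Runx2 was lost under library totals alone, and that of Ifitm5 with the muscle term.
All 8 osteocyte markers had negative log2 fold changes, with a median of -0.38, and their sum was 478 to 545 CPM in non-radiated and 401 to 439 CPM in radiated libraries. Most of that sum was Cd44, at 333 to 359 CPM in non-radiated and 291 to 295 CPM in radiated libraries. The sum thus says little about the other markers. Just 3 of these 8 markers had separate ranges in radiated and control libraries. Ptprz1 and Cd44 were called lower, at -0.50 and -0.25 (edgeR adjusted p 0.0402 and 0.0270). The call of Ptprz1 was lost without non-radiated library 1 or 3 (edgeR adjusted p 0.138 and 0.0715) or radiated library 2 or 3 (0.107 and 0.0968), and that of Cd44 without any 1 library except non-radiated library 3 (0.0626 to 0.0923). Both were lost under library totals alone and with the muscle term. Dkk1, an inhibitor of Wnt signalling, was called lower with the replicate block (edgeR adjusted p 0.0386) and not in the main fit (0.126). Sost, the osteocyte inhibitor of bone formation, was at -0.47 (edgeR adjusted p 0.197).

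The ratio of Fgf23 to Dmp1, as a log2 ratio of counts within a library, was -8.75, -7.78 and -10.04 without radiation and -6.05, -6.55 and -5.72 with radiation in libraries 1, 2 and 3. All radiated ratios were higher, by a mean of 2.75 on the log2 scale. The ratio of Phex to Dmp1 was -0.03, -0.50 and -0.36 without radiation and -0.90, -1.14 and -0.72 with radiation, a mean difference of -0.62 with no overlap. Relative to Mepe, the log2 ratio of Phex was 1.62, 1.55 and 1.68 without radiation and 0.65, 0.59 and 0.87 with radiation, a mean difference of -0.91. Fgf23 relative to Mepe differed by 2.46. Relative to the mean of the 10 osteoblast markers, the Phex difference was -0.49 and the Fgf23 difference 2.88 on the log2 scale, again with no overlap between groups.
Each of these 6 differences had a two-sided exact permutation p of 0.1, the smallest that 20 labelings of 3 against 3 can give, so none could pass 0.05. The ratios use the same counts as the fold changes of Fgf23 and Phex, so they are no separate evidence. Mepe and Enpp1 were higher relative to the osteoblast markers, by 0.42 and 0.23 (exact permutation p 0.1 each), as were Galnt3 and Fam20c, by 0.58 and 0.51 (exact permutation p 0.1 each). None of these genes rose by the test. Their own log2 fold changes were -0.12, -0.32, 0.05 and -0.05 in that order, and the median of the osteoblast markers was -0.56. Dmp1 differed from those markers by 0.13 with overlap between groups (exact permutation p 0.4).

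**Figure D4:**
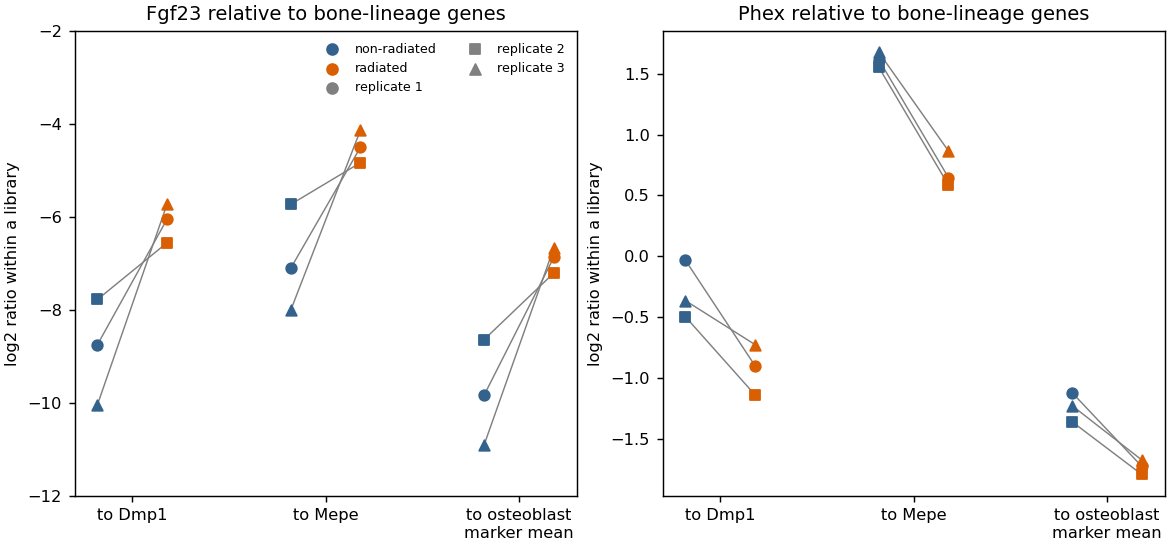
Log2 ratio within a library (vertical axes) of Fgf23 (left) and Phex (right) to Dmp1, to Mepe and to the mean log2 CPM of 10 osteoblast markers, with grey lines joining libraries of the same replicate number. The lines of Fgf23 all rise and those of Phex all fall, and the Phex-to-Mepe ratio is 1.55 to 1.68 in non-radiated and 0.59 to 0.87 in radiated libraries.

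Markers of some other cell types were called as well. Chondrocyte markers, of cells that also use Enpp1 and Ank, summed to 163 to 472 CPM in non-radiated and 179 to 286 CPM in radiated libraries, which overlap, with 8 of 10 negative, 1 called higher and a median of -0.36. The gene called higher was Comp, at 0.77 on the log2 scale (edgeR adjusted p 0.00705), and all 14 alternatives called it. With the replicate block Col10a1, a collagen of hypertrophic cartilage, was called lower too (edgeR adjusted p 0.0587, 0.0364 with the block). Col10a1 was at 138.78, 13.34 and 98.92 CPM in non-radiated and 16.91, 12.96 and 21.33 CPM in radiated libraries. Its value in non-radiated library 2 thus lay among the radiated ones. The 6 adipocyte markers were all called higher, with sums of 180 to 205 CPM and 341 to 434 CPM, and the 7 megakaryocyte markers were all called lower, with sums of 561 to 590 CPM and 199 to 228 CPM. Sums of 9 erythroid markers were 21659 to 24682 CPM in non-radiated and 24750 to 28135 CPM in radiated libraries. The globin gene Hba-a2 alone was called, higher by 0.35 (edgeR adjusted p 0.0498), a call that 9 of 14 alternatives ended, every fit with 1 library left out among them (0.0622 to 0.188). B cell markers summed to 258 to 278 CPM and 420 to 494 CPM (6 of 6 called higher). Macrophage markers summed to 544 to 599 CPM and 667 to 786 CPM (3 of 5 called higher, and 1 to 5 called over the settings). Neutrophil markers summed to 10021 to 12387 CPM and 8040 to 9322 CPM, with 0 of 6 called by edgeR (6 with an unadjusted p under 0.05, and 0 to 6 called over the alternatives). Osteoclast markers summed to 1078 to 1476 CPM and 1233 to 1456 CPM, which overlap, with 1 of 6 called higher (0 to 1 over the settings). The part of these cells in the values of the 10 genes was not tested.

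In 7 lists of the wider pathway 6 of 69 genes tested were called, 8.7%, near the 7.80% over all genes. Of 11 genes for FGF23 receptors, Klotho and their feedback targets, 9 were tested and none was called in the main fit, with a median of 0.05. An unadjusted p under 0.05 was met by 3, and 1, Etv5, was called with the replicate block (edgeR adjusted p 0.0380). Over the settings 0 to 2 were called. Kl, the gene of Klotho, had 0 to 2 counts per library and was not tested. Fgfr1, the main FGF23 receptor, was at 53.3, 42.9 and 55.4 CPM in non-radiated and 56.9, 52.0 and 48.2 CPM in radiated libraries, a log2 fold change of 0.05 (95% interval -0.18 to 0.27).
None of 4 proprotein convertases, the furin family that cuts FGF23, was called. Of these 1 had an unadjusted p under 0.05, Pcsk5, at -0.62 (edgeR adjusted p 0.0986, 0.0269 with the replicate block). Furin itself was at -0.07 (95% interval -0.26 to 0.13).
Of 13 genes linked to FGF23 induction, in either direction, 1 was called higher, Tgfb2, a transforming growth factor. Hypoxia factors, their regulators and inflammatory cytokines are among the 13. Tgfb2 was at 4.66, 4.19 and 4.77 CPM in non-radiated and 7.16, 6.74 and 6.90 CPM in radiated libraries (log2 fold change 0.61, edgeR adjusted p 0.0122). The groups of Tgfb2 did not overlap. Of 14 settings 3 ended its call: library totals alone (edgeR adjusted p 0.0589), leaving out non-radiated library 2 (0.0529) and leaving out radiated library 1 (0.0546). Il1b, an inflammatory cytokine, was called lower with the replicate block, at -0.60 (edgeR adjusted p 0.0269), and not in the main fit (0.143). Its differences were -0.77, -0.16 and -0.86 within numbers 1, 2 and 3. Hif1a, the hypoxia factor, was at 0.01 (95% interval -0.17 to 0.18).

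In the list for vitamin D and parathyroid hormone 5 of 8 genes were tested and 1 was called. Rxra, the partner of the vitamin D receptor, was higher by 0.38 (edgeR adjusted p 0.0199), and 6 of 14 alternatives ended that call, 4 of them edgeR fits without non-radiated library 1 (adjusted p 0.0765) or 2 (0.0746), or lacking radiated library 1 (0.0853) or 2 (0.0531). Vdr, the receptor, was at -0.39 (edgeR adjusted p 0.0644), and its groups were apart. Of 5 other phosphate carriers, Slc34a2 and Slc34a3 had no counts in any library and Slc34a1 at most 9, while Xpr1, the phosphate exporter, was at -0.02 (95% interval -0.16 to 0.11).
Of 15 mineralization genes 12 were tested, with 10 negative and a median of -0.30, and 1 was called lower, Ifitm5 (4 with the replicate block, edgeR adjusted p 0.00409 for Smpd3, 0.0315 for Ibsp and 0.00534 for Bglap2). Alpl, the phosphatase that removes pyrophosphate, was at 48.8, 30.3 and 47.9 CPM in non-radiated and 54.3, 37.5 and 42.6 CPM in radiated libraries, a log2 fold change of 0.08 (95% interval -0.34 to 0.49), so its values did not follow those of Phex or Ifitm5.
Among 24 relatives of the enzymes (other GALNT transferases, FAM20 and ENPP proteins and peptidases related to PHEX), 12 were positive and 12 negative, and Galnt12 was called higher and Galnt15 and Enpp6 lower, at 0.58, -0.47 and -0.42 (edgeR adjusted p 0.0156, 0.0202 and 0.0480). Depending on the setting 0 to 5 of these 24 were called. Galnt12 lost its call without non-radiated library 2 (edgeR adjusted p 0.0622) or radiated library 1 (0.0710), Galnt15 without non-radiated library 2 (0.0645) or radiated library 1 or 3 (0.0823 and 0.0532), and Enpp6 without any 1 library except non-radiated library 2 (0.0799 to 0.159). Mme, the peptidase neprilysin, was at -0.35 (edgeR adjusted p 0.104, 0.0349 with the block).

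**Figure D5:**
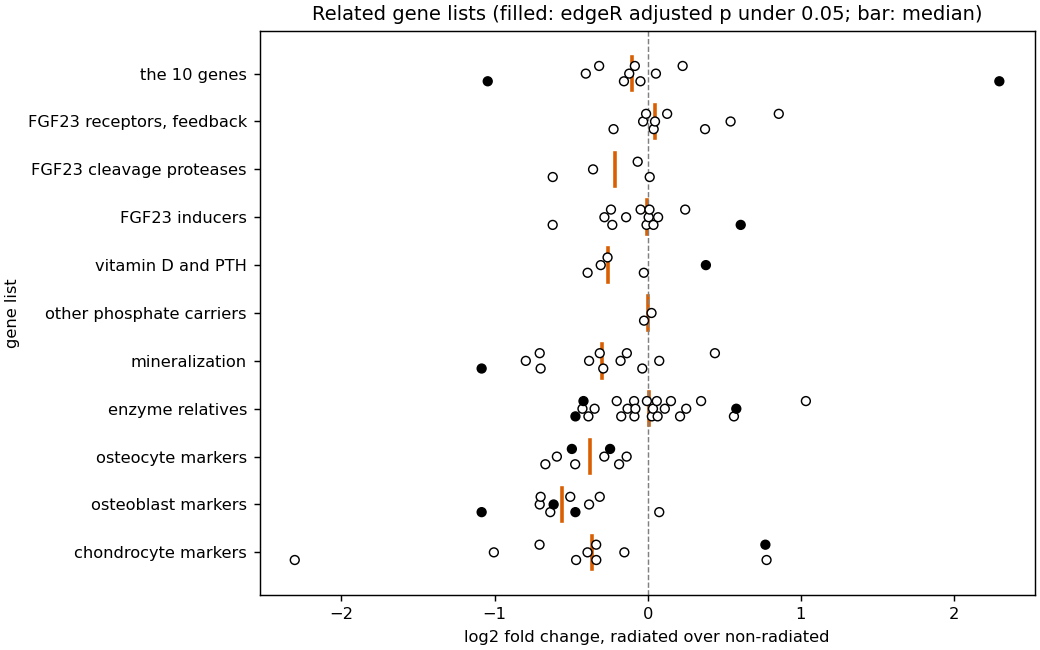
Log2 fold changes (horizontal axis) of the tested genes of the 10 genes and of 10 related lists, 1 point per gene; filled points have an edgeR adjusted p under 0.05 and bars are medians. Fgf23 at 2.30 is the rightmost point, and the osteoblast list has the lowest median, -0.56.

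Some genes followed the same pattern over the 6 libraries. Likeness was the root mean square difference between log2 CPM profiles, each centred on its own mean, over genes whose mean level reached 1 CPM. Closest to Fgf23 among 15580 genes were Npr3, a natriuretic peptide clearance receptor (0.22), Apln, the peptide hormone apelin (0.34), and Disp2 (0.35). Npr3 was at 2.19, 2.99 and 1.25 CPM in non-radiated and 8.80, 6.50 and 6.48 CPM in radiated libraries. Closest to Phex among 15579 genes were the collagen gene Col11a2 (0.10), Ifitm5 (0.11) and the collagen gene Col24a1 (0.11). Col11a2 was at 212.9, 148.6 and 236.7 CPM in non-radiated and 108.0, 69.6 and 91.9 CPM in radiated libraries, so it shared with Phex the low value of non-radiated library 2. Closest to Dmp1 were Krt86 (0.07), Vdr (0.09) and Pacsin1 (0.10), none of them called.

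RefSeq start sites (GRCm38.p6) were matched for 9 of the 10 genes. The 3 sequences shown are those of Fgf23, Phex and Dmp1, because TTTAAA, an AT-rich element that reads the same on both strands, lay within 100 bases before the start in these 3 genes and in 4.39% of 32851 windows of that length. That motif was chosen after the sequences were seen. It began 27 bases before the start in Fgf23 (chr6:127072802-127072901, plus strand), 56 in Phex (chrX:157415287-157415386, minus strand) and 31 in Dmp1 (chr5:104202517-104202616, plus strand). The RefSeq start of Phex lies 26 bases inside the deposited span of the gene, while the starts shown for Fgf23 and Dmp1 match the deposited ones. The window of the other Dmp1 start lacked the motif. Capitals mark TTTAAA in the sequences.
Fgf23: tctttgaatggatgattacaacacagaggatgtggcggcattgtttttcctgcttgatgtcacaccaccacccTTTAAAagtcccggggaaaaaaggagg
Phex: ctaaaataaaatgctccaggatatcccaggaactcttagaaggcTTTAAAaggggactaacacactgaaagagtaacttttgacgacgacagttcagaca
Dmp1: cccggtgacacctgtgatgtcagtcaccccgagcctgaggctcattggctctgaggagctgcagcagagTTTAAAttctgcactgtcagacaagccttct
In these 100 bases G or C made up 46% in Fgf23, 40% in Phex, 50% in Mepe, 61% in Enpp1, 74% in Ank, 82% in Galnt3 and 83% in Fam20c. Dmp1 and Slc20a1 have a pair of RefSeq starts each, with 55% and 45% in Dmp1 and 75% and 47% in Slc20a1. The lower Slc20a1 value is close to that of Fgf23. The core letters TGTGGT, searched on both strands, were in the windows of Mepe and Slc20a1 (5.61% of all windows), and CACGTG in windows of Slc20a1 and Dmp1 (3.17%), the latter at a second Dmp1 start. Fgf23 and Phex, which moved in opposite directions, both held TTTAAA and neither of the other letters.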

How the data were processed

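RNA-seq gene counts of 6 femur libraries, 3 radiated and 3 non-radiated, were analysed. The deposited table holds raw counts and RPKM per library, per the file headers, and gene lengths. The submitters' processing notes name bcl2fastq, STAR 2.5.2b, Subread, featureCounts and build mm10. The annotation, any filter and the strand setting are not given in the sources used here. Each library's deposited counts are whole and sum to a total of their own. The RPKM deposited by the authors was not used, and levels per length are CPM divided by the deposited length.

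Low genes were removed by filterByExpr (min.count 10, min.total.count 15), and counts were scaled by TMM and tested over 18757 genes with glmQLFit and glmQLFTest of edgeR 4.0.16 in R 4.3.3, with group as the only term and Benjamini-Hochberg adjustment. The SE is the log2 fold change divided by the square root of F. For likeness, a prior count of 2 was added. On counts simulated for 18757 genes, the test found 70.7% of 99 genes set to change 2-fold and 91.8% of 97 set to change 4-fold, with 10 calls among 18266 genes left alone. These counts were drawn with the dispersions edgeR estimated here and with independent libraries. They check that the procedure runs as intended and do not measure its error in these data. Recovery at levels as low as that of Fgf23 was not examined apart.

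Replicates differed by more than sampling noise (chi-square per degree of freedom 17.8 to 631). Whether a replicate number stands for 1 mouse is not in the labels. Deviations from group means correlated across genes at 0.166, 0.289 and 0.191 for numbers 1, 2 and 3, and at -0.179 to -0.008 between numbers. Deviations cancel within a group, so positive values for the same number push the others below 0. The numbers may thus pair the libraries, but the labels do not state it, and the main fit has no block. With the block 8.9% of all genes were called, against 7.8% in the main fit. That replicate block was tried as an alternative. The others were DESeq2 1.42.0 size factors, library totals, no filter, a mean level of 1 CPM or more, the Wald test of DESeq2, voom of limma 3.58.1, a muscle term and leaving out each library.

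The genes and lists were chosen with earlier results of these data known. Named are the 10 genes, up to 6 called genes per list at 1 CPM or more, and the 3 likest to Fgf23, Phex and Dmp1. Named outside that rule, after their values were seen, are Sost, Kl, Fgfr1, Etv5, Pcsk5, Furin, Hif1a, Xpr1, Slc34a1, Slc34a2, Slc34a3, Smpd3, Ibsp, Bglap2, Alpl, Mme, Il1b, Dkk1 and Col10a1, AY036118, and the genes that overlap a named one. Of 165 list entries all were found, 4 through their gene ID.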

Additional observations from a re-analysis of the deposited data

How the results depend on the processing

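The replicate block changed no call among the 10 genes, with 2 called, where 8.9% of all genes were called. For the ratios it cannot move the mean (2.75 for Fgf23 to Dmp1 and -0.62 for Phex to Dmp1), since with complete pairs both means are equal by construction. The number called was 1 with a mean of at least 1 CPM, which removes Fgf23, 1 with the muscle term, which loses Phex, and 4 with DESeq2's Wald test, which adds Dmp1 and Enpp1. Over all genes 8.92%, 5.76% and 10.3% were called in those 3 settings. With no filter Dmp1 was called beside Fgf23 and Phex, where 7.2% of all genes were called. The number of the 10 called was 2 to 3 when 1 library was left out. Over all genes 3.99% (764, radiated library 1 left out) to 7.25% (1376, non-radiated library 3 left out) were then called. Without non-radiated library 1 or 2 these were 4.69% (905) and 4.22% (819). The difference of Phex with Mepe in place of Dmp1 was -0.91. Leaving out 1 library gave ratio differences to Dmp1 of 2.16 to 3.29 for Fgf23 and -0.72 to -0.49 for Phex. Signs turned only for genes that were not called: under library totals alone Mepe was at 0.032, Fam20c at 0.12, Ank at 0.11 and Slc20a1 at 0.0408. With 1 library left out Mepe lay between -0.30 (radiated library 1) and 0.006 (non-radiated library 1), and Fam20c between -0.20 (non-radiated library 2) and 0.15 (non-radiated library 3), with 0.05 for radiated library 2. Fam20c was at 0.14 with the muscle term. The cause was not tested. Depth limits Fgf23 most, with 19 counts over the 3 non-radiated and 124 over the 3 radiated libraries.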
